A study of Saccharomyces cerevisiae with 5 samples.

Results

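The proteasome genes of Saccharomyces cerevisiae were examined in a comparison of RNA recovered with zzYra1, the tagged protein, and RNA recovered with only the zz tag. No proteasome gene passed the test for a difference between the immunoprecipitates: of 33 genes, 5 had enough values to be tested and 0 were called, as were 0 of all 725 genes tested (0%). The genes were chosen by their symbols in the annotation of the arrays, as 14 genes of the core particle, 18 of the regulatory particle and RPN4, among 5583 genes in all. All 33 were found on both of the 2 spotted array designs, with 40 of 7680 spots on the design of arrays 1 to 3 and 66 of 12800 spots on that of arrays 4 and 5. Each symbol stood in the annotation as listed, so none had to be updated.

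Yra1 is an adaptor protein of nuclear mRNA export, and the zz tag is an affinity tag derived from protein A. Each of 5 two-channel arrays set cDNA of a zzYra1 immunoprecipitate against cDNA of a zz immunoprecipitate, so that the arrays form 1 group of replicates, called arrays 1 to 5. Channel 2 held the zzYra1 immunoprecipitate on arrays 1, 2 and 5, and channel 1 held it on arrays 3 and 4, with the zz immunoprecipitate in the other channel. Arrays 4 and 5 bear the same day in their labels. The sources used here do not give the strain, its genotype, the growth conditions or the level of the tagged protein. They do not say either whether the arrays came from separate cultures, so a p-value here measures no more than the spread over 5 arrays, which may be technical.

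The proteasome degrades proteins that carry ubiquitin chains. Its core particle is a barrel in which alpha rings form the gate and beta rings hold the catalytic sites. The regulatory particle binds ubiquitinated substrates, removes the ubiquitin, and unfolds the substrate with a ring of ATPases that threads it into the core. In yeast the transcription factor Rpn4 activates proteasome genes and is itself degraded by the proteasome. What was measured here is none of these proteins but the mRNAs of their genes in 2 immunoprecipitates.

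Values are log2 ratios of the channels, with spots of a gene averaged and the median gene of the array set to 0. The sources used here do not give which immunoprecipitate was the numerator, so no sign in what follows says which immunoprecipitate held more of an mRNA. Signs are printed as deposited unless a sentence says that arrays 3 and 4 were turned. Over all genes the arrays shared little: the Pearson correlation across genes lay between -0.0816 and 0.0468 over 10 pairs of arrays. The spread over spots was largest on array 4 (SD 2.51) and between 0.96 and 1.17 on the other arrays. YRA1 had a value on array 3 alone (0.63), and MEX67, which encodes the export receptor that Yra1 recruits, had -1.07 on array 1 and 0.16 on array 3, so the tagged gene gives no check of the labels.

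The agreement between 2 spots of the same gene differed between the designs. On arrays 4 and 5 the 2 spots of a gene correlated across genes (Pearson r = 0.802 over 909 genes and 0.862 over 731 genes). On arrays 1, 2 and 3 they did not, with r = 0.0342 over 225 genes, 0.106 over 258 genes and -0.0256 over 1022 genes. Spots of the same gene had opposite signs for 53.8%, 52.3% and 49.4% of genes on arrays 1, 2 and 3, against 14.6% and 14.5% on arrays 4 and 5. These correlations run across genes, which are no independent replicates, and are descriptions. Whether the symbols of the design of arrays 1 to 3 stand beside the right spots was not tested, so the gene names of values on these arrays are those of the annotation and may be wrong. This holds for every value printed for arrays 1, 2 and 3 and for every fit that includes them, and its part in those results was not tested.

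The proteasome genes with 2 spots can be given one by one. On array 4, 9 of them had a value on both spots, with a median gap of 0.28, and on array 5, 7 had one, with a median gap of 0.36. The smallest gap on array 4 was that of RPT3, an ATPase of the regulatory particle, whose spots read 1.30 and 1.43. The largest was that of RPT1, another ATPase of that ring, at 1.12 and -1.38, so the mean of -0.13 hides 2 opposite spots. On array 5 the spots of RPN1, a large scaffold subunit that binds ubiquitin receptors, differed by 0.0294, and those of RPN7, a lid subunit, read 0.29 and 2.37.

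The design of arrays 1 to 3 held 2 spots for 7 proteasome genes, and array 3 had a value on both for all 7. Their median gap was 1.36, against 1.03 for all genes with 2 spots there. The lid subunit gene RPN12 read -1.98 and 0.76, the alpha-ring gene SCL1 read -1.60 and 0.64, and the alpha-ring gene PRE8 read -0.84 and 0.76. These 3 had opposite signs, while RPT1 (0.55 and 0.47), PRE5 (-0.25 and -0.51), PRE4 (1.24 and 0.56) and RPT6 (0.10 and 1.46) did not. On array 1 only PRE8 had both spots (-1.12 and -0.60), and on array 2 none did.

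**Figure D1:**
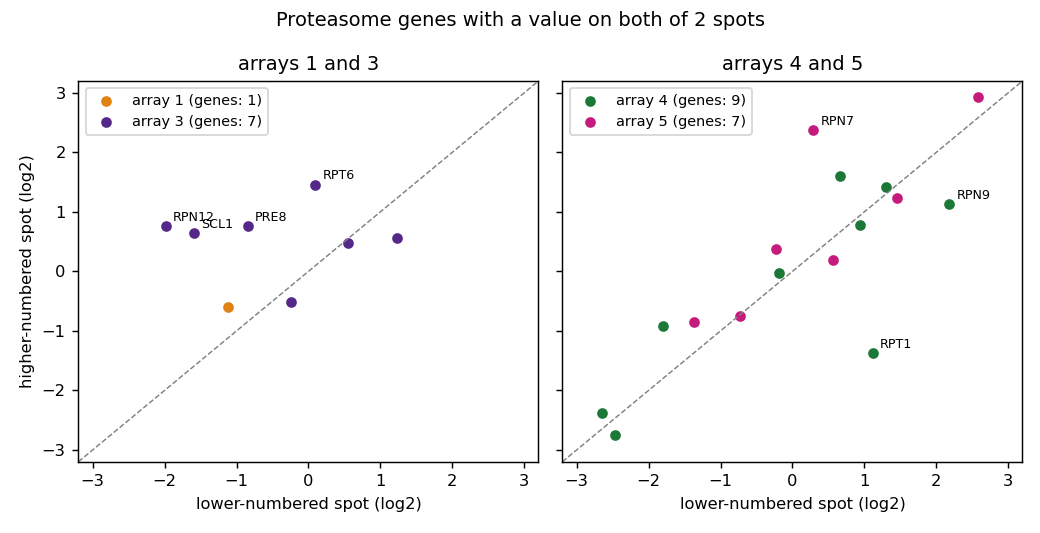
Centred log2 ratios of the lower-numbered (x axis) and higher-numbered (y axis) spot of each proteasome gene measured on both, on arrays 1 and 3 (left, 1 and 7 genes) and arrays 4 and 5 (right, 9 and 7 genes); the dashed line marks equal values, and genes more than 1 log2 unit apart are named. On array 3 the spots of RPN12, SCL1 and PRE8 have opposite signs, and on array 4 those of RPT1 do.

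The share of proteasome genes with a value was highest on array 3 and lowest on array 5, as for other genes. On array 1, 18 of the 33 had a value (54.5%), against 44.3% of other genes, and on array 4, 12 did (36.4%), against 23.9%. On array 2 the share was lower than that of other genes, with 14 (42.4%) against 51.1%. Array 3 had a value for 31 proteasome genes (93.9%) against 97.6% of other genes, and array 5 for 7 (21.2%) against 19.8%. These shares are descriptions, and the sources used here do not give the reason why a value is missing.

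**Figure D2:**
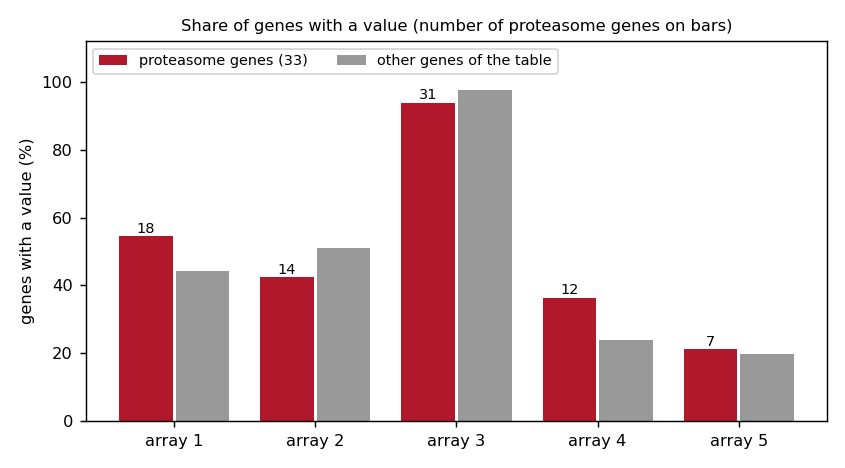
Percent of genes with a value on each array for the 33 proteasome genes (red) and for the other genes of the same table (grey); numbers on the red bars count proteasome genes. The proteasome share is above that of other genes on arrays 1, 4 and 5 and below it on arrays 2 and 3.

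Within the complex the shares differed from array to array. Core particle genes had a value in 8, 5, 14, 3 and 4 of 14 cases on arrays 1 to 5, against 10, 9, 17, 8 and 3 of 18 regulatory particle genes. Alpha-ring genes were measured for 6 of 7 on array 1, and for 1, 7, 0 and 1 of 7 on arrays 2 to 5. Beta-ring genes were measured for 2, 4, 7, 3 and 3 of 7. ATPase genes had a value in 4, 2, 6, 2 and 0 of 6 cases, and the other subunits of the regulatory particle in 6, 7, 11, 6 and 3 of 12.

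Across arrays, 1 proteasome gene had a value on all 5 (PRE3), 4 had one on 4 (PRE4, RPN7, RPN9 and RPN12), and 11 on 3 arrays each. A further 11 had a value on 2 arrays and 6 on a single array. The single values were those of PUP1, PUP2, RPT4 and RPN3 on array 3, RPN4 on array 4 and RPN11 on array 2. The 5 genes with at least 4 values are 15.2% of the proteasome genes, against 720 of the 5550 other genes.

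Alpha-ring genes, whose products gate the core, lay within 1 log2 unit of the array median except for PRE5 and PRE6. PRE5 had 1.74 on array 1, 2.85 on array 2 and -0.38 on array 3. Its value on array 2 was above that of 98.6% of measured genes and the highest of any proteasome gene there. The 6 measured spots of other genes within 10 spot numbers of it had a median of -0.47 and lay between -1.65 and 3.64. PRE6 had -1.40 on array 1, where only 0.929% of genes were lower, and 0.75 on array 3.

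Values of the other alpha-ring genes lay on both sides of the median. PRE8 had -0.86 on array 1 and -0.04 on array 3. SCL1 had 0.13 on array 1 and -0.48 on array 3, and PRE10 had -0.11 and 0.58 on the same arrays. PRE9, the one core subunit gene that yeast can live without, had -0.02, -0.52 and 0.38 on arrays 1, 3 and 5. PUP2 had -0.44 on array 3 alone.

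Beta-ring genes include the 3 whose products carry the proteolytic sites. PRE3, which encodes the subunit with caspase-like activity, had -0.18, 0.68, -1.41, -0.11 and 0.08 on arrays 1 to 5. Array 3 was the low one, with 6.33% of genes below PRE3, and the other 4 arrays were within 0.7 of the median. PRE2, which encodes the subunit with chymotrypsin-like activity, had -0.09 on array 3, -1.17 on array 4 and 1.34 on array 5. The spots of PRE2 on array 5 read 1.46 and 1.23. PUP1, which encodes the subunit with trypsin-like activity, had 0.04 on array 3 alone.

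The remaining beta subunits have no proteolytic site. PRE4 had -0.48, 1.04, 0.90 and 2.76 on arrays 1, 2, 3 and 5. Its value on array 5 was the highest of the proteasome genes there, above 98.4% of measured genes, and its 2 spots on that array read 2.59 and 2.93. PUP3 had -1.05 on array 2, the lowest proteasome value on that array, and 1.46 on array 3. PRE7 had 0.54 and -0.43 on the same 2 arrays, and PRE1 had -0.37 on array 3 and -0.34 on array 4.

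The ATPase genes encode the ring that unfolds substrates. RPT3 had nearly the same value on each array that measured it, 1.36 on array 1, 1.25 on array 3 and 1.36 on array 4. Since array 1 has the opposite orientation to arrays 3 and 4, these 3 values point the same way only if the deposited values had already been turned. Their places within the arrays differed, with 90.0% and 93.0% of genes lower on arrays 1 and 3 but 72.8% on the wide array 4. RPT2 had -0.15, -0.35 and -0.59 on arrays 1 to 3, and RPT1 had 0.28, 0.51 and -0.13 on arrays 2 to 4. RPT5 had 0.01 and -0.74, and RPT6 had -0.23 and 0.78, on arrays 1 and 3. RPT4 had 0.54 on array 3 alone.

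Among the other regulatory particle genes, the scaffold subunit gene RPN2 had -0.15, 0.49 and 1.57 on arrays 1 to 3, and 97.0% of genes were lower on array 3. RPN1 had -0.03, -0.98 and -0.74 on arrays 2, 3 and 5. The ubiquitin receptor genes RPN10 and RPN13 had -0.46 and -0.40 on array 1 and 0.38 and 0.73 on array 3, and RPN10 also had 1.13 on array 4. RPN11, which encodes the deubiquitinase of the lid, had 1.30 on array 2 alone. RPN8, whose product pairs with Rpn11, had 1.11 on array 3 and -1.36 on array 4.

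The remaining genes of this class encode lid subunits. The spot annotated as RPN6 had the highest value of any proteasome gene on any array, 4.94 on array 1, above 98.5% of measured genes, while RPN6 had -0.13 on array 2 and 1.15 on array 3. It rests on 1 spot on array 1, and the 3 measured spots of other genes within 10 spot numbers of it lay between 0.05 and 0.84. RPN7 had -0.12, -1.60, -2.61 and 1.33 on arrays 1, 3, 4 and 5. Its spots on array 4 read -2.47 and -2.75, the lowest proteasome gene there, although array 4 was so wide that 14.7% of its genes were lower.

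RPN9 had 0.08, -1.37, 1.66 and -1.10 on arrays 2 to 5, and was the lowest proteasome gene on array 5. RPN12 had 0.66, -0.70, -0.61 and 2.13 on arrays 1 to 4, and was the highest proteasome gene on array 4. Its values on arrays 1, 2 and 4 came from 1 of 2 spots, and that on array 3 is the mean of -1.98 and 0.76. RPN5 was above the median on each of its arrays, with 0.54, 1.17 and 0.86 on arrays 2 to 4. RPN3 had its only value on array 3, at -2.02, where 2.00% of genes were lower. RPN4, which encodes the regulator and no subunit, had -2.52 on array 4 alone, from spots at -2.65 and -2.39. On that wide array 15.3% of genes were lower.

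**Figure D3:**
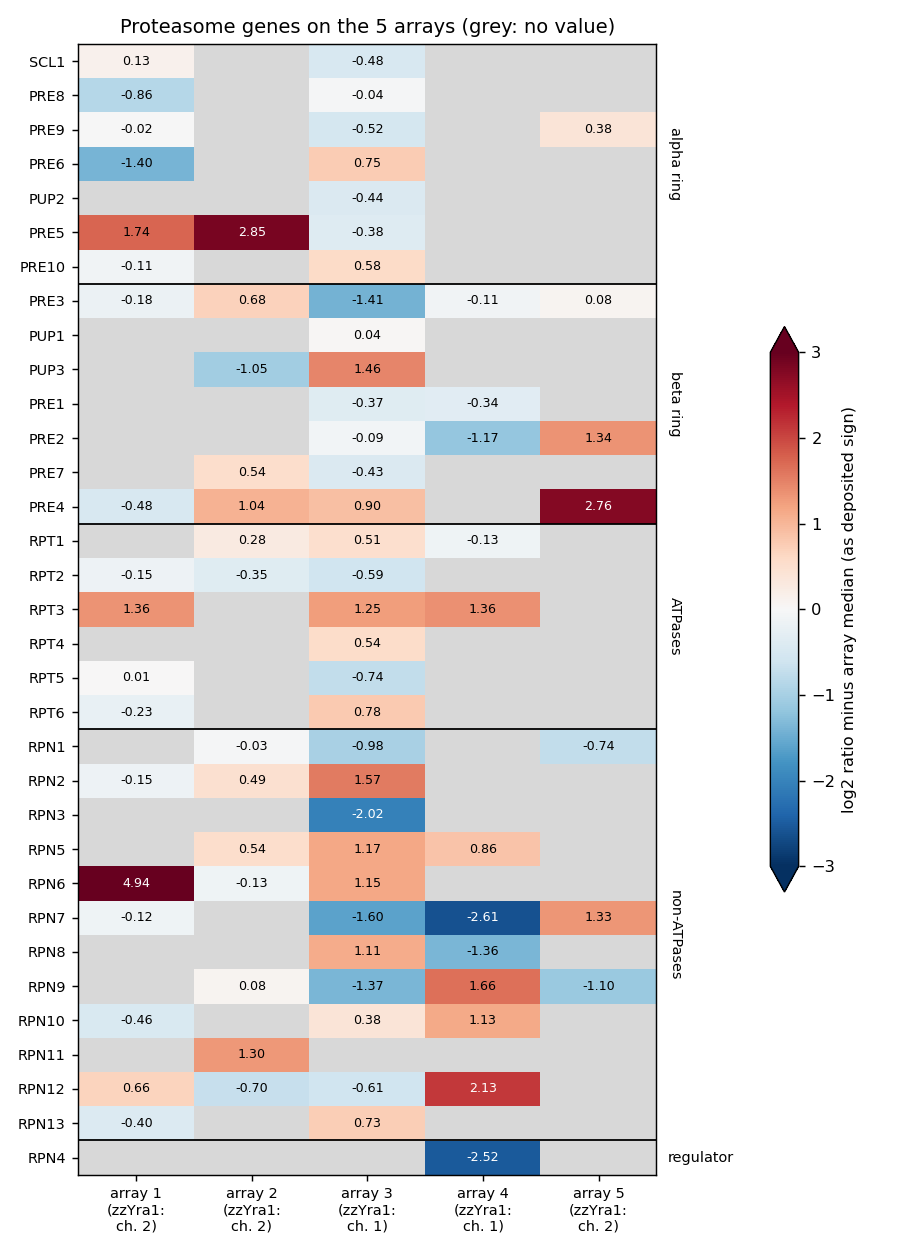
Centred log2 ratio (colour and number) of each proteasome gene (rows, grouped by role) on each array (columns, with the channel of the zzYra1 immunoprecipitate); grey cells have no value, and colours stop at 3 and -3. RPN6 on array 1 (4.94), PRE5 on array 2 (2.85) and PRE4 on array 5 (2.76) are the highest values, and RPN7 (-2.61) and RPN4 (-2.52) on array 4 are the lowest. Array 4 has the widest values, and 14.7% and 15.3% of its genes are below RPN7 and RPN4. Only 2.00% of genes are below RPN3 on array 3 (-2.02) and 0.929% below PRE6 on array 1 (-1.40).

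As a group, proteasome genes lay near the median gene. Their medians were -0.13, 0.39, -0.04, -0.12 and 0.38 on arrays 1 to 5, a mean of 0.09 ± 0.27 (SD, n = 5), or 0.16 ± 0.22 with arrays 3 and 4 turned. The quartiles were -0.36 and 0.10 for proteasome genes on array 1, against -0.43 and 0.56 for other genes. On array 2 they were -0.11 and 0.65 against -0.49 and 0.56, and on array 3 -0.56 and 0.76 against -0.59 and 0.60. On array 4 they were -1.22 and 1.19 against -1.73 and 1.58, and on array 5 -0.33 and 1.34 against -0.67 and 0.78.

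The values were spread to both sides of the median on every array. Above it stood 6 of 18, 9 of 14, 15 of 31, 5 of 12 and 5 of 7 proteasome genes. The SD over proteasome genes was 1.37, 0.95, 0.96, 1.58 and 1.34 on arrays 1 to 5, against 1.09, 0.91, 0.91, 2.52 and 1.14 over other genes. By SD, proteasome genes were narrower than the rest on array 4 alone, while by the distance between quartiles they were also narrower on arrays 1 and 2. The SD on array 1 includes RPN6 at 4.94. The 12 proteasome genes of array 4 included none in the highest or lowest 10% of genes, while array 3 had 6 in the highest and 4 in the lowest.

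Core and regulatory particle genes were set against each other on each array. The median of core genes was -0.15, 0.68, -0.23, -0.34 and 0.86 on arrays 1 to 5, against -0.13, 0.08, 0.51, 1.00 and -0.74 for regulatory genes. The differences, core minus regulatory, were -0.01, 0.60, -0.74, -1.34 and 1.60. The ranges of the particles overlapped on all 5 arrays. As deposited, the differences averaged 0.02 ± 1.15 (SD, n = 5), with 2 above 0 and 3 below.

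The picture depends on the reading of the signs. With arrays 3 and 4 turned, 4 of the differences lay above 0 and the one of array 1 at -0.01, with a mean of 0.85 ± 0.64 (SD, n = 5). Those of arrays 4 and 5, the largest, rest on 3 core and 8 regulatory genes on array 4 and on 4 and 3 on array 5. With means of the particles in place of medians, an alternative chosen after the values were seen, the differences as deposited were -0.69, 0.65, -0.11, -0.92 and 1.31, so the one on array 1 moved away from 0 and the one on array 3 towards it. No test was made of these differences, since the genes were chosen with earlier results known, and they are descriptions.

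**Figure D4:**
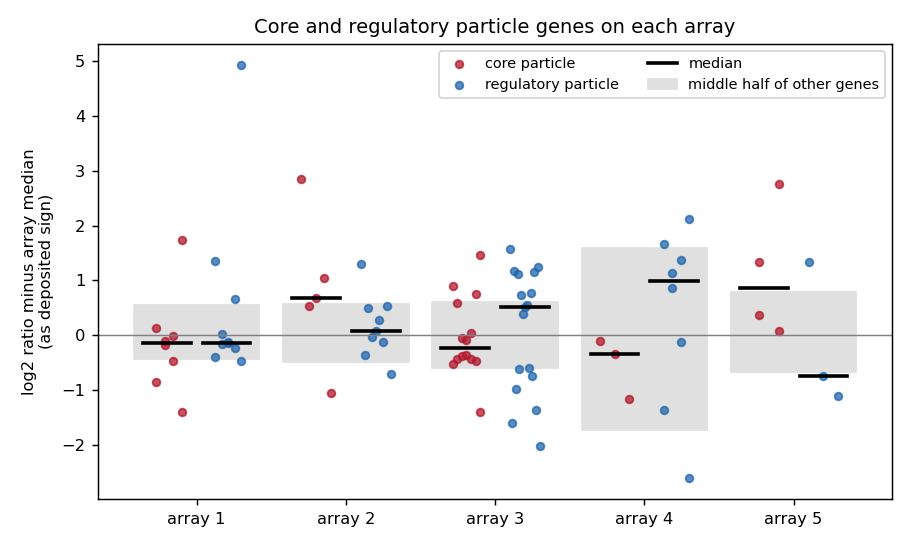
Centred log2 ratio as deposited (y axis) of each core (red) and regulatory (blue) particle gene on each array, with the median of each particle as a bar and the range from the lower to the upper quartile of other genes in grey. Core medians lie above regulatory medians on arrays 2 and 5 and below them on arrays 3 and 4, the arrays of the opposite orientation, and the points overlap on every array. On array 1, which shares the orientation of arrays 2 and 5, the difference of medians is -0.01.

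The share of proteasome genes with the same sign on 2 arrays was close to that of other genes. Over the 4 pairs of arrays of the same orientation, 12 of 26 proteasome values had the same sign on both (46.2%), against 48.6% for other genes. Over the 6 pairs of opposite orientation, 23 of 52 did (44.2%), against 49.9%. All 4 proteasome genes measured on both array 4 and array 5, PRE2, PRE3, RPN7 and RPN9, had opposite signs on these 2 arrays, whose orientations are opposite. Of other genes 52.0% had the same sign there. Of 11 genes measured on both array 3 and array 4, which share an orientation, 7 had the same sign, against 49.3% of other genes. Other pairs went the other way. On arrays 1 and 5, of the same orientation, 0 of 4 proteasome genes had the same sign, against 46.6% of other genes. On arrays 1 and 4, of opposite orientation, 4 of 5 did, against 49.1%.

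Single genes gave a like count. Of the 16 proteasome genes with values on at least 3 arrays, 4 (25%) had all their values on one side of the median as deposited, against 18.7% of other genes: RPT2, RPT3, RPN1 and RPN5. With arrays 3 and 4 turned, 3 did (18.8%), against 21.1% of other genes: PRE2, PRE5 and RPN10.

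The difference between the immunoprecipitates was tested with limma on the 725 genes that had a value on at least 4 arrays. The orientation was a term of the fit, which gives 2 readings. In the channel reading the same channel is the numerator throughout, so that arrays 3 and 4 are turned, and in the other reading the deposited values had already been turned. In either reading 0 of 725 genes (0%) had an adjusted p under 0.05, and so 0 of the 5 proteasome genes tested. At an unadjusted p under 0.05 stood 19 genes (2.62%) in the channel reading, of which 1 was a proteasome gene, and 25 genes (3.45%) in the other reading, of which none was. The median 95% interval over genes, not adjusted for the number of genes, reached 1.32 to either side. Smaller differences were mostly not detectable with 5 arrays. Larger ones could be missed too, since calls used adjusted p-values. RPN7 was at 1.35 with arrays 3 and 4 turned and was not called (adjusted p = 0.905 in limma).

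RPN7 had the largest fitted value of the 5, at 1.35 ± 0.54 (SE; 95% interval 0.11 to 2.60) in the channel reading, with an unadjusted p of 0.0357 and an adjusted p of 0.905 in limma. In this reading it ranked 11 of 725 by p. Turned for orientation, its values were above the median on arrays 3, 4 and 5 and just below it on array 1. With the arrays brought to equal spread the interval ran from -0.11 to 2.44, and it also included 0 when array 1, 2, 4 or 5 was left out (unadjusted p between 0.0646 and 0.162 in limma). In the other reading it was at -0.75 ± 0.54, with an adjusted p of 0.903.

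The other 4 had intervals that spanned 0 in both readings. In the channel reading PRE3 was at 0.48 ± 0.46 (interval -0.56 to 1.51), and in the other reading at -0.28 ± 0.46. PRE4 was at 0.11 ± 0.73 (interval -1.57 to 1.78) in the channel reading and 1.00 ± 0.73 (interval -0.68 to 2.68) under the other. RPN9 was at -0.33 ± 0.64 in the channel reading and -0.19 ± 0.64 under the other. RPN12 was at -0.39 ± 0.62 in the channel reading and 0.37 ± 0.62 under the other. Adjusted p-values of these 4 lay between 0.903 and 0.973. Above 0 stood 3 of the 5 proteasome genes in the channel reading (median 0.11) and 2 under the other reading (median -0.19), against 52.6% (median 0.06) and 54.1% (median 0.07) of all genes tested.

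**Figure D5:**
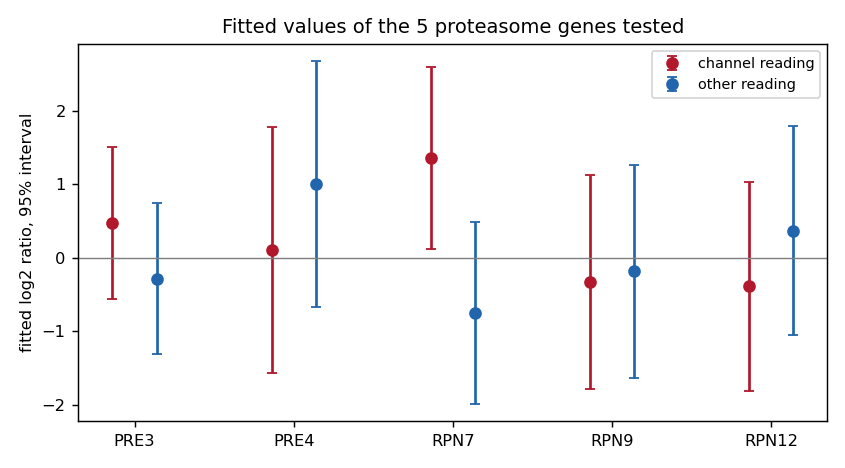
Fitted log2 ratio with its 95% interval (y axis) for the 5 proteasome genes in the limma fit, in the channel reading (red, arrays 3 and 4 turned) and the other reading (blue, as deposited). The interval of RPN7 in the channel reading runs from 0.11 to 2.60, and the other 9 intervals include 0; with arrays of equal spread that of RPN7 includes 0 too.

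More proteasome genes entered a fit of genes with at least 3 values, in which 0 of 2295 genes were called. In the channel reading all 5 core genes tested were above 0, with a median of 0.48. They ran from 0.11 for PRE4 through 0.35 for PRE9, 0.48 for PRE3 and 0.99 for PRE2 to 1.34 for PRE5. Of 11 regulatory genes 6 were above 0, with a median of 0.02 and a range from -0.70 for RPN2 to 1.35 for RPN7. Among all genes in this fit 53.2% were above 0 and the median was 0.06. In the other reading 3 of 5 core genes (median 0.36) and 7 of 11 regulatory genes (median 0.23) were above 0, with RPN6 at 1.78 and RPT3 at 1.33, against 52.3% of all genes (median 0.04).

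Each design and each orientation was also fitted alone, and 0 genes (0%) were called in every such fit. These fits had no orientation term and took genes with a value on every array used. Their channel reading is the mean with arrays 3 and 4 turned, and their other reading is the mean as deposited. Fitted values of a gene can therefore differ from those above, as for PRE5, which was at 1.34 with orientation as a term. On arrays 1 to 3, 1282 genes were tested, and 55 (4.29%) in the channel reading and 45 (3.51%) under the other had an unadjusted p under 0.05. Of the 7 proteasome genes there, PRE5 was such a gene in the channel reading, at 1.66 ± 0.53 (unadjusted p = 0.0164, adjusted p = 0.900 in limma). On arrays 4 and 5, 14 (2.56%) and 34 (6.23%) of 546 genes had an unadjusted p under 0.05, and none of the 4 proteasome genes. On arrays 1, 2 and 5, 6 of 281 genes (2.14%) did, and on arrays 3 and 4, 65 of 1300 (5%), with none of 2 and of 11 proteasome genes.

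The number of genes called over the whole table depended most on array 3. Without array 3, limma called 68 of 602 genes (11.3%) in the channel reading and 80 (13.3%) under the other, and 0 of the 4 proteasome genes tested. In that fit array 4 alone has its orientation, and its error is taken to be like that of the other arrays, though its values were the widest. Without array 2, 1 of 1098 genes was called in the channel reading, without array 4, 2 of 1811 were, and without array 1 or array 5 none was. In the other reading none was called without array 1, 2, 4 or 5. With the arrays first brought to equal spread, leaving out array 3 gave 0 calls in either reading, while leaving out arrays 1, 2 and 5 in turn gave 3, 1 and 2 calls in the channel reading and 1, 2 and 4 under the other. None of these calls was a proteasome gene.

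Genes that act with the proteasome were taken from a second list. The list held 30 genes of assembly chaperones, proteasome-associated proteins, shuttle factors and ubiquitin enzymes, with the lid subunit gene SEM1 among them. They had values in 10, 17 and 30 of 30 cases on arrays 1 to 3, and in 7 and 8 of 29 on arrays 4 and 5. Only 3 were tested and 0 were called, against 0 of all 725 genes (0%). Above 0 stood 3 in the channel reading and 2 under the other, against 52.6% and 54.1% of all genes tested. RAD6, which encodes a ubiquitin-conjugating enzyme, had 0.37, -1.06, 0.24 and -3.07 on arrays 1 to 4 and a fitted value of 0.54 ± 0.66 in the channel reading (adjusted p = 0.905 in limma) and -0.88 ± 0.66 in the other.

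The shuttle factor gene DSK2 had 0.80, 0.20, 0.59 and 2.56 on arrays 1, 2, 3 and 5, with a fitted value of 0.30 ± 0.67 in the channel reading (adjusted p = 0.943 in limma) and 0.89 ± 0.67 under the other (adjusted p = 0.903). UFD4, which encodes a ubiquitin ligase, had 1.67, 0.39, 0.42 and 1.12 on arrays 1 to 4. All 4 of its values were above the median as deposited, and its fitted value was 0.13 ± 0.53 in the channel reading (adjusted p = 0.960 in limma) and 0.90 ± 0.53 under the other (adjusted p = 0.903).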

How the data were processed

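The measurements were 5 hybridisations of cDNA from 2 immunoprecipitates on two-channel spotted arrays. The deposited values were taken as log10 ratios of the channels. The labels do not state the scale, which was inferred: of 400 values drawn per array, 30.75% to 94.25% gave whole-number ratios, with denominators up to 3000 and a tolerance of 2e-09, when read as log10, against 1.25% to 3.0% when read as log2. The sources used here do not give the scanner, background correction, dyes, missing-value rule or genome build. Without intensities signal over background is unknown, and what limits the precision was not tested. Spots with a value numbered 3125, 3515 and 7429 of 7680 on arrays 1 to 3, and 2535 and 2098 of 12800 on arrays 4 and 5.

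Deposited log10 ratios were turned into log2 ratios with a factor of 3.32, the spots of each gene were averaged, and the median gene of an array was set to 0. The medians as deposited were 0.800, -0.343, 0.0482, 0.478 and 0.478 log10 units. No loess or quantile step was used. Genes with values on at least 4 arrays were fitted in limma 3.58.1 (R 4.3.3), with orientation as a term, and p-values were adjusted over all genes fitted by the Benjamini-Hochberg method. Fits of a design or an orientation alone used the mean of the values, without that term. The script was tested on simulated data. Arrays were grouped by their labels alone. Gene symbols came from the platform annotation, in which 985 and 1662 spots of the designs had none.

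The genes named are all proteasome genes, the highest and lowest on each array, those with the widest and closest spots on arrays 4 and 5, YRA1 and MEX67, and the related genes with the smallest p. SCL1 and the other 2-spot genes of arrays 1 to 3 were singled out after their values were seen. The proteasome genes and lists were chosen with earlier results of these data known. Alternatives covered filters, scaling, neighbouring spot numbers, centring, choice of spot and each array left out. No sequences or coordinates are given.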

Additional observations from a re-analysis of the deposited data

How the results depend on the processing

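Every alternative fit called 0 proteasome genes in either reading, of only 1 to 16 tested, and most called no gene. Leaving out single arrays gave between 0 and 68 genes called in the channel reading and between 0 and 80 in the other reading, the highest in both without array 3. On the genes of the fit alone the counts were 0 to 68 and 0 to 80 too, and after scaling to equal spread 0 to 3 and 0 to 4. RPN7 kept its direction in all 22 alternatives of each reading, from 0.75 to 2.10 in the channel reading and from -2.10 to -0.11 under the other. PRE3 in the channel reading (0.10 to 1.08) and PRE4 in the other (0.49 to 1.75) did too. These alternatives share arrays, and some repeat a value, so their number is no measure of support. RPN7 had no value on array 2, so leaving that array out gave the main value of 1.35 again. Leave-outs on the genes of the fit alone repeated the values of those on the whole table. On arrays 1 to 3 alone PRE4 was at -0.11 in the channel reading and RPN12 at 0.19 in the channel reading and -0.22 under the other. In the other reading PRE3 was at 0.19 on arrays 1, 2 and 5 alone, and RPN9 at 0.28 on arrays 4 and 5 alone and at 0.14 on arrays 3 and 4 alone. The ranges that follow span single arrays left out with and without scaling to equal spread. Channel-reading values ran from -0.40 to 0.56 for PRE4, from -1.07 to 0.49 for RPN12 and from -1.08 to 0.64 for RPN9. Values of the other reading ran from -0.80 to 0.11 for PRE3, from -0.48 to 1.05 for RPN12 and from -1.19 to 0.57 for RPN9. Fits of a design or an orientation alone had no orientation term, so their readings are tied to each other. On arrays 1, 2 and 5 alone both readings are the same value, and on arrays 3 and 4 alone they differ only in sign. Beyond this, the cause of the reversals was not tested.

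The median of proteasome genes moved to 0.45 on array 3 with the higher-numbered spot of each gene, an alternative chosen after seeing the data. Spots were also taken relative to their neighbours, the spots of other genes within 10 spot numbers, whose places on the slide are not given. With this the median moved to -1.10 on array 4 and -0.94 on array 5, where 10 and 2 proteasome genes were left. That setting left no core gene on array 5, so no particle difference there. With equal spread the difference between the particles was 0.92 on array 2 and -0.64 on array 4; against neighbours it was -0.14, 1.05, -0.38 and -0.78 on arrays 1 to 4; with the lower-numbered spot it was 0.00357 on array 1 and 0.36 on array 2. These moves were under the SD of 1.15 of the differences as deposited, but those of array 4 with equal spread and of array 1 with means in place of medians (-0.69) were over the SD of 0.64 of the turned ones. With values on all spots required, proteasome shares were 39.4%, 30.3%, 93.9%, 27.3% and 21.2% on arrays 1 to 5. None of 12 sets of values held a gap past Dixon's 95% limit. Each ratio already compares the 2 immunoprecipitates within an array. No pairing between arrays was possible because they form 1 group with replicate numbers in accession order only. A random block for arrays 4 and 5 could not be fitted with 1 shared block among 5 arrays.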
